A study of Homo sapiens with 6 samples.

Results

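SG3 and SG8 are guide RNAs whose listed cut sites in PKLR lay 1 bp apart. PKLR encodes the pyruvate kinase made in red blood cells and liver, an enzyme of glycolysis. The 79 sites of their GUIDE-seq lists were taken from the 1626 sites listed for all 6 guides of the series: 50 for SG3 and 29 for SG8. The most counted site inside PKLR (chromosome 1, 155289293 to 155308654, hg38) was the on-target site of each guide, and the other 49 and 28 sites were off-target. Off-target sites within 100 bp of each other were called shared. This left 38 sites listed for SG3 only, 17 listed for SG8 only and 11 shared, or 66 distinct places.

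Both libraries came from HEK293 cells, a human embryonic kidney line, that stably express Cas9, the nuclease that a guide RNA directs to DNA. A complex of the SG3 or SG8 guide with its tracrRNA was nucleofected together with a short double-stranded DNA tag, and the genomic DNA was sequenced. The libraries differ in the guide named. Each guide has 1 library, so differences between them have no replicate behind them and were not tested. Intervals are exact 95% intervals and cover counting error only. Whether the counts are reads or molecules is not stated, and amplified reads would not be independent. Listed counts summed to 13718 for SG3 and 10337 for SG8, which is not the sequencing depth. The lowest listed count was 2 for SG3 and 3 for SG8.

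Cas9 opens DNA next to a short motif, the PAM (NGG for the commonly used enzyme), and pairs the guide with the 20 bases before it. The cut falls 3 bases before the PAM. Pairing next to the PAM matters most, and sites with several mismatches can still be cut. In GUIDE-seq the tag is captured in the break, so a listed site is read as a place where the tag entered DNA in living cells. All 6 libraries of the series had a guide, so no control without a guide was available. Single off-target sites were not checked.

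No source used here gives the guide sequences, and the PKLR sequence at the listed positions was read to see what separates them. Of all NGG motifs on either strand, 2 had a predicted cut within 3 bp of the SG3 or SG8 position, and both lay on the plus strand at consecutive bases. The cut of one fell exactly at the listed SG3 base (155301467) and that of the other at the listed SG8 base (155301468), where a listed position is read as the last base before the cut. With that reading 4 of the 6 guides had an NGG cut at the listed base; SG4 had none, and SG7 lies at the edge of the stretch that could be read. Both stretches are RefSeq sequence of GRCh38.p14, plus strand, chr1:155301441-155301484. They are shown because they place both cuts, and capitals mark the 20 bases next to each PAM.
SG3: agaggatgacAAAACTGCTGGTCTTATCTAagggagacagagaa
SG8: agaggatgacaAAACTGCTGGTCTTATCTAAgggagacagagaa

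These candidate target sequences share a run of 19 bases and hold 7 G or C bases each, or 35.0%. SG3 would use an AGG PAM and SG8 a GGG PAM. The window lies inside the span of PKLR but before a transcript start annotated at 155301438 on the minus strand, with the SG3 position 29 bp and the SG8 position 30 bp upstream of it. Reading on the gene's own strand, the letters AGATAA, which GATA factors of blood cells are known to recognise, occurred once in the promoter window of PKLR (both strands searched), at 155301464 to 155301469. Both cuts fell inside these 6 letters: 4 of them lie on the lower-coordinate side of the SG3 cut and 5 on that side of the SG8 cut. Whether listed positions count from 0 or 1 is not stated. Moved up by 1 bp, the SG3 position would fall at the cut of the GGG motif, no NGG cut would fall at the SG8 position, and the SG8 cut would lie at the edge of the 6 letters. Moved down by 1 bp, the SG8 position would fall at the cut of the AGG motif and the SG3 position at no NGG cut. SG2 and SG4 would then have an NGG cut at their positions too. Which candidate belongs to which guide therefore rests on how positions are read. The letters were found in 10.3% of all 35116 promoter windows of the same length (3628 windows), so the match describes the position and no binding.

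At PKLR the SG3 library had 3087 counts and the SG8 library 7549. The SG3 site held 22.5% of the counts of its list (21.8 to 23.2%) and the SG8 site 73.0% (72.2 to 73.9%). Off-target counts summed to 10631 for SG3 and 2788 for SG8. The SG3 list therefore held more than its PKLR count off target, and the SG8 list less. The sites listed for SG3 only had 6336 counts in all, or 205% of the SG3 count at PKLR. The sites listed for SG8 only had 1481 counts, or 19.6% of the SG8 count at PKLR. The shared sites had 4295 counts for SG3 (139%) and 1307 for SG8 (17.3%). The specific sites held 59.6% of off-target counts for SG3 (58.7 to 60.5%) and 53.1% for SG8 (51.2 to 55.0%). The split of both lists rests on few sites. ARID4A alone had 2273 of the SG3-only counts. Leaving out the sites that another guide of the series lists, VDAC1 and SMCHD1 among them, the SG3-only share was 77.0%. The SG8 split moved as well. Counting only sites with at least 3 counts in both lists, which drops the 2 SG3 counts in RBMS3, 82.1% of the SG8 off-target counts were in sites listed for SG8 only. Leaving out the sites that another guide of the series lists, ERBB4 among them, it was 37.5%, so that the shared sites then held more.

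**Figure D1:**
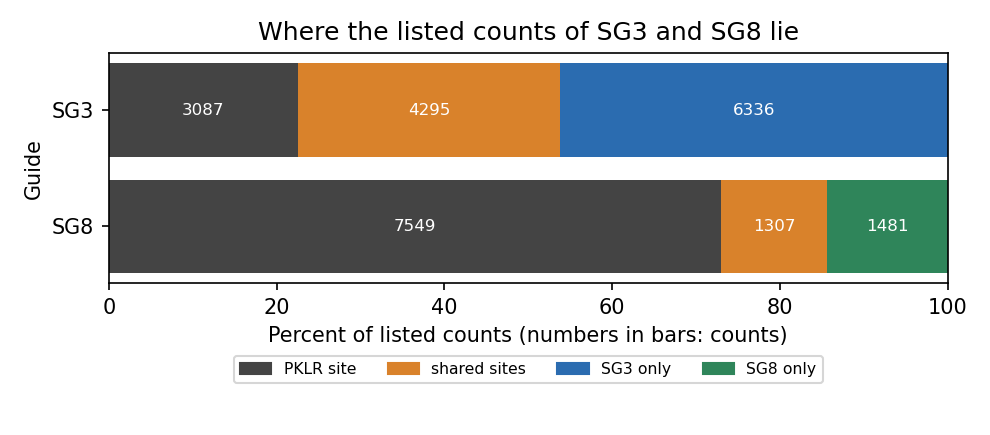
Percent of all listed counts of each guide (horizontal axis) at the PKLR site, at the 11 shared sites and at the guide's own sites; numbers in the bars are counts. The PKLR part is 3087 of 13718 counts for SG3 and 7549 of 10337 for SG8.

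The shared sites were not the strongest sites of both guides at once. Among the 5 most counted off-target sites, 2 were shared for SG3 and 2 for SG8, and none of them was in the top 5 of both. Among the 10 most counted, 5 were shared for SG3 and 4 for SG8, and 1 site, on chromosome 11, was in both. The strongest site of SG3, in ARID4A, was listed for SG3 only, while the strongest of SG8, in RBMS3, was at the bottom of the SG3 list with 2 counts.

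**Figure D2:**
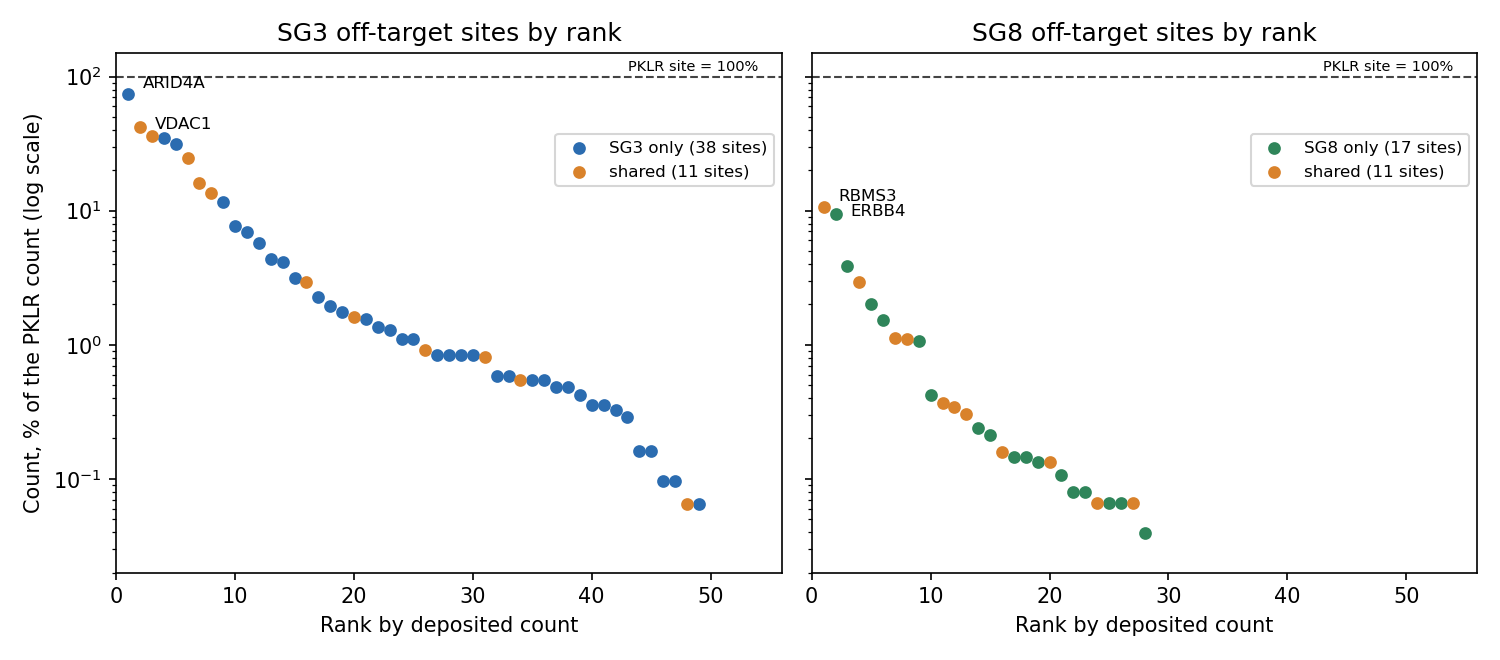
Off-target sites of SG3 (left) and SG8 (right) in order of count (horizontal axis), with each count in percent of the guide's PKLR count on a log scale (vertical axis); colours separate shared sites from sites of 1 guide. SG3 runs from 73.6% at ARID4A to 0.0648%, and SG8 from 10.7% at RBMS3 to 0.0397%.

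Among the sites listed for SG3 only, the highest lay in ARID4A, a chromatin gene whose product binds the retinoblastoma protein (chromosome 14, 58312554). It had 2273 counts, which was 73.6% of PKLR (69.7 to 77.8%) and 35.9% of all SG3-only counts. PRRG1, which encodes a membrane protein with a vitamin K-dependent domain (chromosome X, 37455875), followed with 1083 counts or 35.1% (32.7 to 37.6%). A site on the same chromosome outside genes (68453025) had 976 counts or 31.6%. These leading 3 sites held 68.4% of the SG3-only counts.

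The next SG3-only sites were lower. GATAD2A, a subunit gene of the NuRD chromatin complex (chromosome 19, 19457979), had 237 counts or 7.68% of PKLR. CD27, a receptor gene of lymphocytes (chromosome 12, 6450433), had 128 counts or 4.15%, at a place where the antisense gene CD27-AS1 overlaps. MTHFD1L, a folate enzyme of mitochondria (chromosome 6, 151044686), had 98 counts or 3.17%. Outside genes, 214 counts were listed on chromosome 13 (58568385, 839074 bp from PCDH17), 177 on chromosome 12 (94954397, 16936 bp from NDUFA12) and 135 on chromosome X (115426322, 118759 bp from LUZP4). The 10 most counted SG3-only sites made up 89.6% of the SG3-only counts.

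The other 28 SG3-only sites held 658 counts, from 70 down to 2. Of these, 10 lay in protein-coding genes. ZNF609, a zinc finger gene, had 70 counts and SPTSSA, a subunit gene of the enzyme that starts sphingolipid synthesis, had 54. TMTC3 had 40 counts, SPMIP3 34, TBC1D31 26, the LIM domain gene PDLIM5 15 and the phosphatase gene PTPRA 10. GMDS, an enzyme of fucose synthesis, and SYNJ2, a phosphoinositide phosphatase, had 5 each, and PNPLA8 had 3. In long non-coding RNA genes lay 6 sites: LOC124901607 (chromosome 7, 30225127) had 60 counts, LOC124904230 26, LOC107986734 and PPP1R3B-DT 18 each, LINC02955 15 and LOC124902717 11. The other 12 sites were outside genes, spread over 8 chromosomes, with 2 to 48 counts and 248 in all. The highest of them were on chromosome 13 (86020470, 48 counts), chromosome 5 (121918435, 42 counts) and chromosome 4 (100976567, 34 counts). Of all 38 SG3-only sites, 18 reached 1% of PKLR and 4 reached 10%.

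Among the sites listed for SG8 only, the highest lay in ERBB4, a receptor tyrosine kinase gene (chromosome 2, 212497988). It had 712 counts, or 9.43% of PKLR (8.72 to 10.2%), and 48.1% of all SG8-only counts. Long non-coding RNA genes came next: CSRP3-AS1 (chromosome 11, 19284971) had 291 counts or 3.85%, and LOC105370777 (chromosome 15, 39180928) had 151 counts or 2.00%. The leading 3 held 77.9% of the SG8-only counts. ERBB4 was the only off-target site of either guide in the 84 cancer genes looked up, and none lay in the 39 genes of red cells and glycolysis. It is a long gene of 1163086 bp, and the part of the sequence that either list covers was not computed. The lists were chosen with earlier results of these data known, so this describes the position only.

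The SG8-only sites below these were weak. SAMD12 (chromosome 8, 118234148) had 116 counts or 1.54% of PKLR, and a site outside genes on chromosome 11 (45448404, 162063 bp from SYT13) had 80 counts or 1.06%. The myosin gene MYO3B (chromosome 2, 170400702) had 32 counts and NAALADL2 (chromosome 3, 174913888) had 18. A site outside genes on chromosome 2 (186555769) had 16. PLXDC2 (chromosome 10, 19935209) and the pseudogene FABP3P2 (chromosome 13, 42369219) had 11 each. The last 7 sites held 43 counts together. They were the overlapping genes ARCN1, of the COPI vesicle coat, and IFT46, of cilia (10 counts), SNX18, a sorting nexin (5), MPDZ, a gene of cell junctions (5), RACK1, a scaffold protein of the ribosome (3), and 3 places outside genes (6 to 8 counts). Of all 17 SG8-only sites, 5 reached 1% of PKLR and none reached 10%.

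The specific sites were set against the other list by asking what count the other guide would have at the same ratio to PKLR. For the 38 SG3-only sites this count ran from 4.89 to 5558 with a median of 63.6, and all 38 lay above the lowest listed SG8 count of 3. It was at least 10 for 35 of them and at least 100 for 15. ARID4A would have 5558 counts and PRRG1 2648 in the SG8 list, which holds neither. For the 17 SG8-only sites the count in SG3 ran from 1.23 to 291 with a median of 4.50. It reached the lowest listed SG3 count of 2 for 16 sites, 10 for 6 and 100 for 2, which were ERBB4 (291) and CSRP3-AS1 (119). This contrast holds on the PKLR scale only. Scaled by listed off-target counts, 16 of the 38 SG3-only sites would have at least 10 counts in SG8 (3 at least 100), and all 17 SG8-only sites would have at least 10 in SG3 (6 at least 100). On that scale ARID4A would have 596 counts in SG8 and ERBB4 2715 in SG3. The filters behind the lists are unstated in these sources, so a site that is not listed was given no upper limit.

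**Figure D3:**
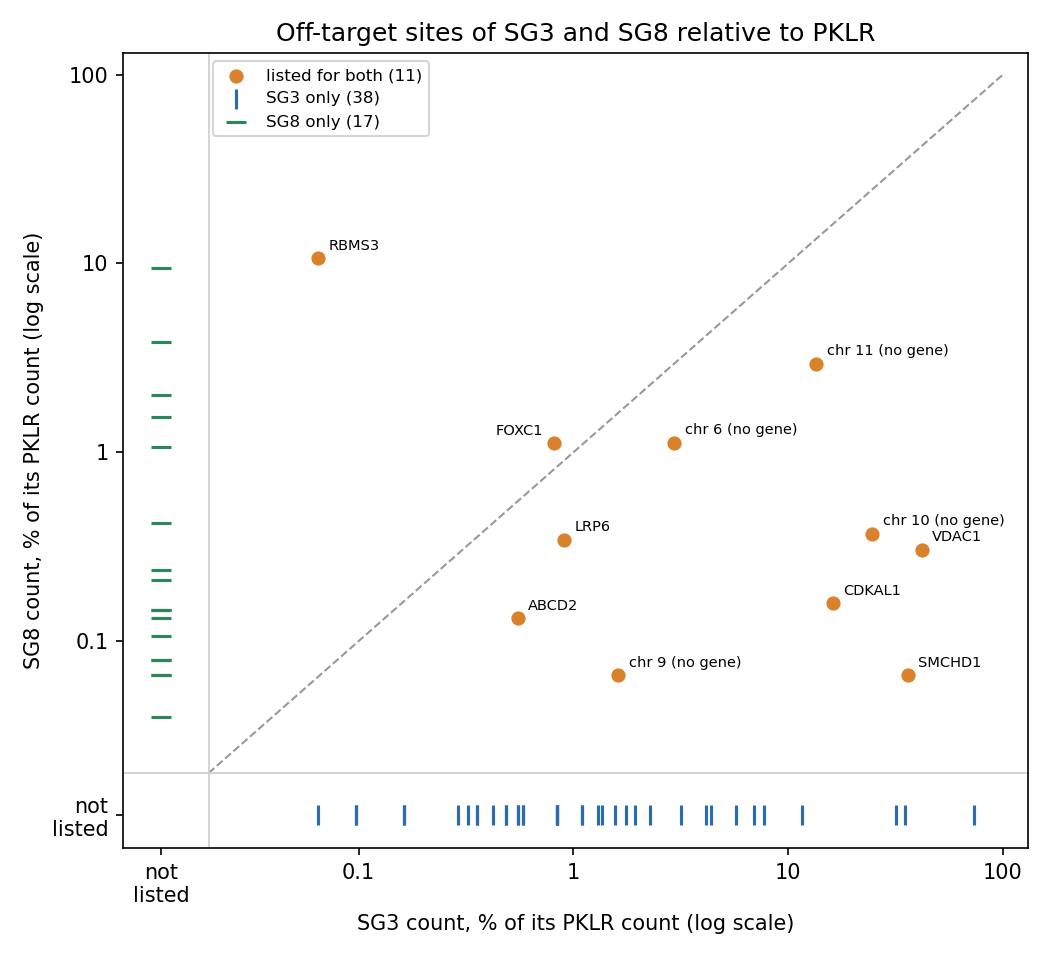
Each off-target site by its count in percent of PKLR for SG3 (horizontal axis) and SG8 (vertical axis), both on log scales; sites of 1 guide stand in the lane marked not listed, and the dashed line marks equal values. RBMS3 and FOXC1 lie above the line and the other 9 shared sites below it.

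The 11 shared sites differed between the guides by up to 545-fold relative to PKLR. The lower of the paired counts went down to 2 in RBMS3 (SG3) and 5 in SMCHD1 (SG8). Passage of reads between the libraries was not tested. A difference of 10-fold or more, used as a rule of size, was met by 5 sites on the SG3 side (45.5% of the shared sites, which are all sites this comparison can be made for). It was met by 1 site on the SG8 side (9.09%), making 54.5% in either direction. By share of listed off-target counts, in place of PKLR, 3 sites on the SG3 side and 2 on the SG8 side met it, the second being FOXC1.

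SMCHD1, a gene of X inactivation, had 1114 counts for SG3 (chromosome 18, 2710814) and 5 for SG8 (2710817), a 545-fold difference relative to PKLR (232 to 1682). VDAC1, the channel of the mitochondrial outer membrane (chromosome 5, 134063729), had 1293 and 23 counts, or 137-fold (91.0 to 218). CDKAL1, an enzyme that modifies transfer RNA (chromosome 6, 21007900), had 498 and 12, or 101-fold (57.4 to 198). The remaining large differences towards SG3 were outside genes. A site on chromosome 10 (131707253, 193755 bp from PPP2R2D) had 760 and 28 counts, or 66.4-fold (45.4 to 101). A site on chromosome 9 (119383969 for SG3 and 119383971 for SG8, near BRINP1) had 50 and 5, or 24.5-fold (9.79 to 78.6). The 3 in genes stayed past 10-fold on every scale tried, whereas those on chromosomes 10 and 9 fell to 7.12-fold and 2.62-fold by share of off-target counts.

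RBMS3, an RNA-binding protein gene (chromosome 3, 29669970), went the other way at the same base, with 2 counts for SG3 and 807 for SG8. It was 165-fold higher for SG8 (45.5 to 1365), and the interval is wide because of the 2 counts. FOXC1, a forkhead transcription factor gene (chromosome 6, 1613797), had 25 counts for SG3 and 84 for SG8. Its ratio of SG3 over SG8 was 0.728, and the interval of 0.445 to 1.15 includes 1.

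At the other 4 sites the guides were under 5-fold apart relative to PKLR. A site on chromosome 11 outside genes (14369863 and 14369864), 5357 bp from RRAS2, had 417 and 222 counts, or 4.59-fold (3.87 to 5.46). ABCD2, a fatty acid transporter of peroxisomes (chromosome 12, 39616836), had 17 and 10 counts, or 4.16-fold (1.80 to 10.2). LRP6, a co-receptor of Wnt signals (chromosome 12, 12217346 and 12217345), had 28 and 26, or 2.63-fold (1.49 to 4.68). A site on chromosome 6 outside genes (115569171) had 91 and 85, or 2.62-fold (1.92 to 3.57). Raw counts at LRP6 and at this last site were nearly equal, so their direction turned on the scale. Relative to PKLR 9 of the 11 sites were higher for SG3. By share of all listed counts 7 were, with LRP6 and the chromosome 6 site turned. By share of off-target counts 5 were, with ABCD2 and the chromosome 11 site turned as well.

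**Figure D4:**
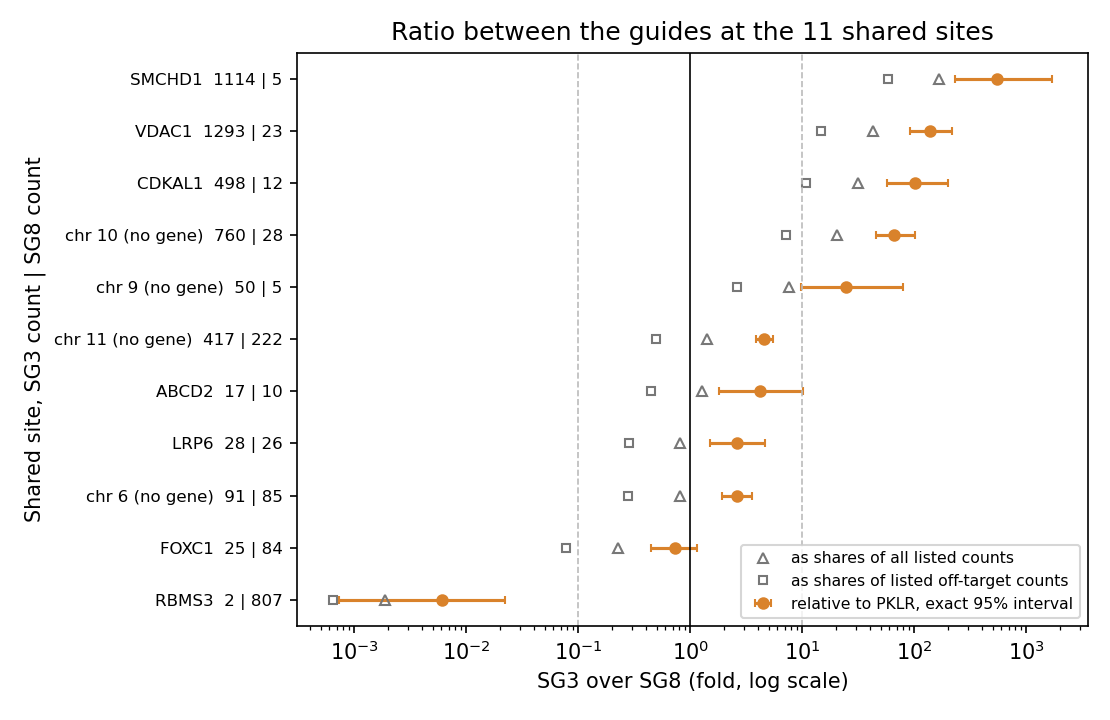
SG3 over SG8 at the 11 shared sites on a log scale (horizontal axis), with both counts beside each name (vertical axis). Filled points with bars are relative to PKLR with exact 95% intervals, open symbols use 2 other scales, and the 4 sites from the chromosome 11 site down to the chromosome 6 site cross 1 on at least 1 of them.

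The offset between the paired positions was compared with the 1 bp at PKLR. At 7 of the 11 shared sites both guides were listed at the same base. SG8 lay at a higher coordinate at 3 sites, by 1 bp on chromosome 11, 2 bp on chromosome 9 and 3 bp in SMCHD1. It lay at a lower coordinate at 1 site, by 1 bp in LRP6. The strand of the target is not listed at off-target sites, so an offset there has no direction along the guide.

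No gene held sites of both guides at separate places. The only genes with more than 1 listed off-target position were LRP6 and SMCHD1, through the offsets just given. Protein-coding genes held 16 of the 38 SG3-only sites, or 42.1% (26.3 to 59.2%), 9 of the 17 SG8-only sites, or 52.9% (27.8 to 77.0%), and 7 of the 11 shared sites, or 63.6% (30.8 to 89.1%). All 3 intervals are wide, and enrichment in genes was not tested. Protein-coding genes cover 41.6% of sequence between the first and last gene of each chromosome. By counts, 70.0% of the SG3-only and 61.6% of the SG8-only counts lay in them, since ARID4A, PRRG1 and ERBB4 are in genes. The genes hit had a median length of 100198 bp for SG3-only, 473425 bp for SG8-only and 149292 bp for shared sites. A base drawn evenly from protein-coding genes lies in a gene of 172215 bp at the median. The SG8-only median, from 9 sites, was above this value, and the SG3-only and shared medians were below it. A difference in gene length was not tested.

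No off-target site of either list was within 1000 bp of an annotated start of a protein-coding gene. The nearest were the SG3 site in CD27, 1216 bp from the start of its neighbour TAPBPL, and the SG8 site in ARCN1, 1303 bp from that gene's start. Starts on chromosome 8, with 2 SG3-only and 2 SG8-only sites, were not analysed here. None of the sites lay in a promoter window whose sequence could be read, so their match to the candidate targets was not analysed. The promoter windows were searched for the candidate 20 bases followed by NGG, on both strands. Apart from PKLR itself, each candidate had 1 place with up to 4 mismatches. It lay in a promoter window of LOC124900991 for SG3 and of TRPM1-AS1 for SG8. Neither place was listed.

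Few of these sites were listed for the other guides SG1, SG2, SG4 and SG7. Within 100 bp, SG3 had 4 such sites among its 49 off-target sites and SG8 had 3 among 28. Of the shared sites, SMCHD1 had 2 counts for SG1, at the base listed for SG8, and VDAC1 had 2 for SG7. Of the SG8-only sites, ERBB4 had 3 counts for SG1 and 3 for SG7, against 712 for SG8. Of the SG3-only sites, SYNJ2 had 5 counts against 2680 for SG1, and also 5 for SG4. A site on chromosome 5 outside genes (41722589) had 2 counts for SG3 and 80 for SG1. The SG3 counts at these last 2 places were far below those of SG1. Passage of reads between libraries was not tested, for these places or for the shared sites.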

How the data were processed

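Each of the 6 guides has 1 library and 1 deposited list of sites. Per the file headers, the lists give a whole-number count per site and a ratio. The deposited ratio equals the site's count over the PKLR count in the SG3 and SG8 lists (largest difference 4.97e-10). Per the submitters' processing notes the build is hg38. The aligner, the site caller, its filters and whether counts are reads or molecules: not given in the sources used here.

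Sites were parsed from their names, matched within 100 bp and placed in genes of RefSeq GRCh38.p14 by gene start and end, without exons. Shares have Clopper-Pearson intervals. Folds are odds ratios of site and PKLR counts with exact conditional 95% intervals. Matching and the intervals of shares were tested on simulated data, and the intervals of ratios to PKLR and of folds were not. The software was scipy 1.17.1 and pandas 2.3.3 under Python 3.11.15, with figures from matplotlib 3.10.9.

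Named by rule are the PKLR sites, all shared sites, the 10 most counted sites of each guide alone, sites in 2 gene lists, those listed for other guides and those within 1000 bp of a gene start. Others are named or counted by place to account for the members, and 1 site that the rule would name is not reported here. Members and lists were chosen with earlier results of these data known. The PKLR sequence reading, the GATA letters and the promoter search were added after the lists were seen.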

Additional observations from a re-analysis of the deposited data

How the results depend on the processing

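Of 59 recomputed summary values, 38 stayed within their counting interval or, for numbers of sites, within 1.5 times. Requiring the same base left 7 shared sites, with 74.7% of SG3 and 62.4% of SG8 off-target counts in guide-specific sites. These shares were 70.5% and 82.1% with at least 10 counts per site, and 82.1% for SG8 with at least 3. With at least 1% of PKLR, 2 sites were shared, 23 were SG3 only and 7 SG8 only, with shares of 95.1% and 88.0%. Without sites that another guide lists, the shares were 77.0% and 37.5%, and PKLR held 27.3% (SG3) and 78.7% (SG8); VDAC1, SMCHD1 and ERBB4 leave by construction. By share of off-target counts, 3 shared sites were 10-fold or more higher for SG3 and 2 for SG8, and 5 were higher for SG3 at any size. On scales added after the data were seen, 12 (all listed counts) or 17 (off-target counts) SG8-only sites would have 10 or more counts in SG3, and 16 SG3-only sites by off-target counts in SG8. Windows of 10 and 1000 bp, a 5-fold rule and counting all annotated genes moved none of these. No shared site past 10-fold changed direction on another scale. No paired analysis was possible because there is 1 library per guide, so none could be left out either.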

Other observations

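Along the genome the guide-specific sites were scattered. The 38 SG3-only sites lay on 16 chromosomes, with 6 on chromosome 12, 4 on chromosome 6 and 3 on X. The 17 SG8-only sites lay on 9, with 4 on chromosome 2 and 3 on chromosome 11. The nearest SG3-only and SG8-only sites to each other were 372565 bp apart on chromosome 2, between the SG8 site in ERBB4 and an SG3 site of 17 counts outside genes (212870553). An SG3-only site of 5 counts in GMDS (chromosome 6, 1909886) lay 296089 bp from the shared site in FOXC1.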
